A study of Mus musculus with 8 samples.

Results

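UDP-glucuronosyltransferases (UGTs) of mouse liver are described here, as 10 genes of the Ugt2 and Ugt3 families: Ugt2a3, Ugt2b1, Ugt2b5, Ugt2b34, Ugt2b35, Ugt2b36, Ugt2b37, Ugt2b38, Ugt3a1 and Ugt3a2. The members were chosen by symbol, as the array features annotated with 1 of these names. Features were found for 9 of the 10 genes. They numbered 11, since Ugt2b37 and Ugt3a2 had 2 each, and all 11 were measured on all 8 arrays. No feature carried the symbol Ugt2b36, which has no value here. The 9 genes are part of 15346 genes tested.

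The 8 two-colour Agilent arrays form 4 groups of 2, which are female IL1-beta, male IL1-beta, male control and female control. All mice were of the inbred strain C3H/HeN and 8 weeks old. The treated mice received recombinant murine IL1-beta, an inflammatory cytokine, by intraperitoneal injection at 25 µg/kg on alternate days over 2 weeks, and the controls received vehicle on the same schedule. Livers were taken 1 h after the last dose, so each value reflects repeated dosing and a short interval after the final injection together. By the labels, liver RNA carried Cy5 on every array and a reference pool of 11 mouse cell lines carried Cy3. The labels call the 2 samples of a group biological replicates and say nothing further on their origin. All p-values rest on how far the 2 arrays of a group lie apart, pooled over the 4 groups and drawn towards the spread of all genes. That spread may be technical.

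UGTs sit in the membrane of the endoplasmic reticulum and join a sugar to small molecules such as steroids, bile acids, bilirubin and drugs, which makes them water soluble and ready for export into bile or urine. Enzymes of the UGT1 and UGT2 families use UDP-glucuronic acid as the sugar donor, and the human UGT3 enzymes use other UDP-sugars. Hepatocytes are the main site of glucuronidation in the body, and rodent livers are known to express several drug-metabolising enzymes at unequal levels in females and males. In the RefSeq annotation of mouse (GRCm38.p6), the Ugt2 members lie in 1 cluster on chromosome 5 in the order Ugt2b34, Ugt2b1, Ugt2b35, Ugt2b36, Ugt2b5, Ugt2b37, Ugt2a3 and Ugt2b38, with pseudogenes and small nuclear RNA genes between them. Ugt3a1 and Ugt3a2 lie on chromosome 15 with 1 pseudogene between them.

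On the control arrays 4 of 9 UGT genes, all in the chromosome 5 cluster, passed in the same direction, against 9.3% of all genes. That count takes each array on its own. With same-number control arrays taken as pairs, 1 of 9 passed, against 2.33% of all genes. The promoters of the members were then read from the RefSeq table (GRCm38.p6), which held 9 of the 10 members and not Ugt3a2. The following 110 bases run 5′ to 3′ on the strand of the gene, from 100 bases before the annotated start site. They are shown for the 4 genes that passed the test on the control arrays, for Ugt2b38, whose promoter is most like that of Ugt2b37, and for Ugt2a3. Capitals mark a palindrome made of GTTA, 5 bases of any kind, and TAAC.
Ugt2b1, chr5:86926494-86926603, minus strand: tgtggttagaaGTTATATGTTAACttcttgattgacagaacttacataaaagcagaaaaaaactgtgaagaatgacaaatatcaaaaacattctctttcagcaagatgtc
Ugt2b35, chr5:87000760-87000869, plus strand: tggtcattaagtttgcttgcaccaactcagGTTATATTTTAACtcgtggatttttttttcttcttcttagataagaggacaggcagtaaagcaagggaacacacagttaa
Ugt2b5, chr5:87140331-87140440, minus strand: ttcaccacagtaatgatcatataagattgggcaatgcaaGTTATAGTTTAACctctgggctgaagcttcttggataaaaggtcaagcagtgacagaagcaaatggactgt
Ugt2b37, chr5:87254779-87254888, minus strand: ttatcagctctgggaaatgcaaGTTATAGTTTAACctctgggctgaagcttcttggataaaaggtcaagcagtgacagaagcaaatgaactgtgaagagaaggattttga
Ugt2b38, chr5:87424194-87424303, minus strand: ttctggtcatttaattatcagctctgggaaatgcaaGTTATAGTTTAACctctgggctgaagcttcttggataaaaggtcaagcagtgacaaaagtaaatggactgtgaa
Ugt2a3, chr5:87337186-87337295, minus strand: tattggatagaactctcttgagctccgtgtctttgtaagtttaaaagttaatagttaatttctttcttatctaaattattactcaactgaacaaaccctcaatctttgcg
The letters of the palindrome, which are those of the type bound by the hepatocyte factor HNF1, were chosen after the promoters had been read. The palindrome reads the same on both strands. Within 250 bases before and 50 bases after the start site it was present in 8 of 9 member promoters, against 0.332% of all 32851 promoters in the table. The exception was Ugt2a3. The palindrome did not separate the passing genes from the others. Ugt2b34, Ugt2b38 and Ugt3a1 held it and did not pass on the control arrays, where Ugt3a1 had the opposite sign to the Ugt2 members. In Ugt2b5, Ugt2b37 and Ugt2b38 the site had the same 13 letters, GTTATAGTTTAAC, at 61, 78 and 64 bases before the start site. In Ugt2b35 and Ugt2b36 it was GTTATATTTTAAC, at 70 and 64 bases. Ugt2b1 held GTTATATGTTAAC at 89 bases and Ugt2b34 held GTTACACTTTAAC at 73 bases. In Ugt3a1 it lay farther out, at 130 bases, as GTTAAAAATTAAC. These promoters are not independent of each other: over the 300 bases, Ugt2b37 and Ugt2b38 were 86.9% identical, Ugt2b5 and Ugt2b38 84.2%, and Ugt2b5 and Ugt2b37 76.2%. A 9-letter palindrome of the type bound by STAT5, TTCNNNGAA, was in 0 of 9 member promoters and in 8.3% of all promoters. A match describes letters and does not show that a factor binds, and a missing match says only that these letters are not in the window.

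The arrays were first checked against their labels. The IL1-beta arrays carried a liver profile over the pool, with hepatocyte marker medians (10 genes, log2 ratio) of 5.95 and 6.08 in females and 6.16 and 6.41 in males. On the arrays labelled control the same median lay at 0.01 and 0.09 (labelled male) and at -0.24 and -0.30 (labelled female), so no excess of liver over pool was measured there. Xist, an RNA made from the inactive X chromosome of females, averaged 1.81 on female and -4.34 on male IL1-beta arrays. It averaged 5.59 on the arrays labelled male control and -4.75 on those labelled female control, against the labels, and the Y-linked gene Eif2s3y was reversed likewise at -9.87 and 10.41. Over the 15346 genes, same-number arrays labelled female and male control correlated at r = -0.722 and -0.592, and unlike numbers at -0.519 and -0.478. The direction of the control arrays is therefore not settled. Their difference is given here as labelled male minus labelled female control, divided by 2. The sign is turned so that positive values lie on the side of Xist. The division by 2 assumes that each control array set liver of 1 sex directly against liver of the other. The labels name liver over the pool instead, and the assumption was not tested. For the UGT genes described here the value as labelled, which is not halved, is given beside the turned one. The centring of the deposited ratios is unknown too, their base was taken as 10 without a label that states it, and the number of arrays limits the precision of every value.

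Under IL1-beta, UGT mRNAs were among the transcripts with the highest ratio of liver to pool. Ugt2b5 read 8.60 and 9.47 (log2 ratio) on the female arrays and 9.23 and 9.67 on the male arrays, with a mean of 9.24 ± 0.46 (SD, n = 4 arrays), or 606 times the pool. Ugt2a3, whose human counterpart glucuronidates bile acids, read 8.77 and 9.37 in females and 9.20 and 9.43 in males, 585 times the pool on average. Among all 15346 genes, Ugt2b5 and Ugt2a3 held ranks 6 and 7 by this mean ratio. The sexes overlapped for both genes, with female array 1 the lowest of the 4.

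The next 3 genes of the order also belong to the chromosome 5 cluster. Ugt2b1, an enzyme that in rat conjugates bisphenol A, read 7.91 and 8.64 in females and 8.37 and 8.67 in males (337 times the pool, rank 21). Ugt2b35 read 7.51 and 8.37 in females and 8.50 and 8.57 in males (302 times, rank 29). Ugt2b37 read 7.52 and 7.74 in females and 7.96 and 8.16 in males (230 times, rank 42). For Ugt2b35 and Ugt2b37 both male arrays lay above both female arrays. Ugt2b38 stood at 6.74 and 7.24 in females and 6.84 and 7.08 in males (126 times, rank 95), with the sexes interleaved.

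The 2 Ugt3 genes and Ugt2b34 had smaller ratios. Ugt3a2, whose human counterpart uses UDP-glucose and UDP-xylose, read 6.16 and 5.78 in females and 6.38 and 6.11 in males (69.0 times the pool). Ugt3a1, whose human counterpart uses UDP-N-acetylglucosamine, read 5.48 and 5.95 in females and 5.98 and 5.95 in males (57.2 times). Ugt2b34 was the lowest at 3.62 and 4.32 in females and 4.29 and 3.85 in males (16.2 times, rank 838). Thus 8 of the 9 genes read at least 5 on all 4 IL1-beta arrays, against 2.95% of all genes. A ratio to the pool depends on what the cell lines express, so this order is not one of mRNA abundance. Of neighbours in the order, Ugt2b5 and Ugt2a3, and Ugt2b1 and Ugt2b35, differed by less than their SDs over the 4 arrays, which ran from 0.23 to 0.49 among the 9 genes. The ranks order the mean ratios alone. Among the other genes they are not firm either, since the 2 features of a gene can lie farther apart than neighbours do. Ugt2b37, for example, is a mean of features at 6.83 and 8.85.

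Probe sequences were not analysed here. The Ugt2b genes are close relatives, and how far a feature also reads another member was not tested. Where a gene had 2 features they could be compared. The features of Ugt2b37 averaged 6.83 and 8.85 on the IL1-beta arrays, and the female arrays lay below the male arrays on both. The features of Ugt3a2 averaged 4.89 and 7.32. The dimmer ratio varied little (SD 0.04 over 4 arrays) and the other more (SD 0.50), so the spread of Ugt3a2 comes mostly from 1 of its features.

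**Figure D1:**
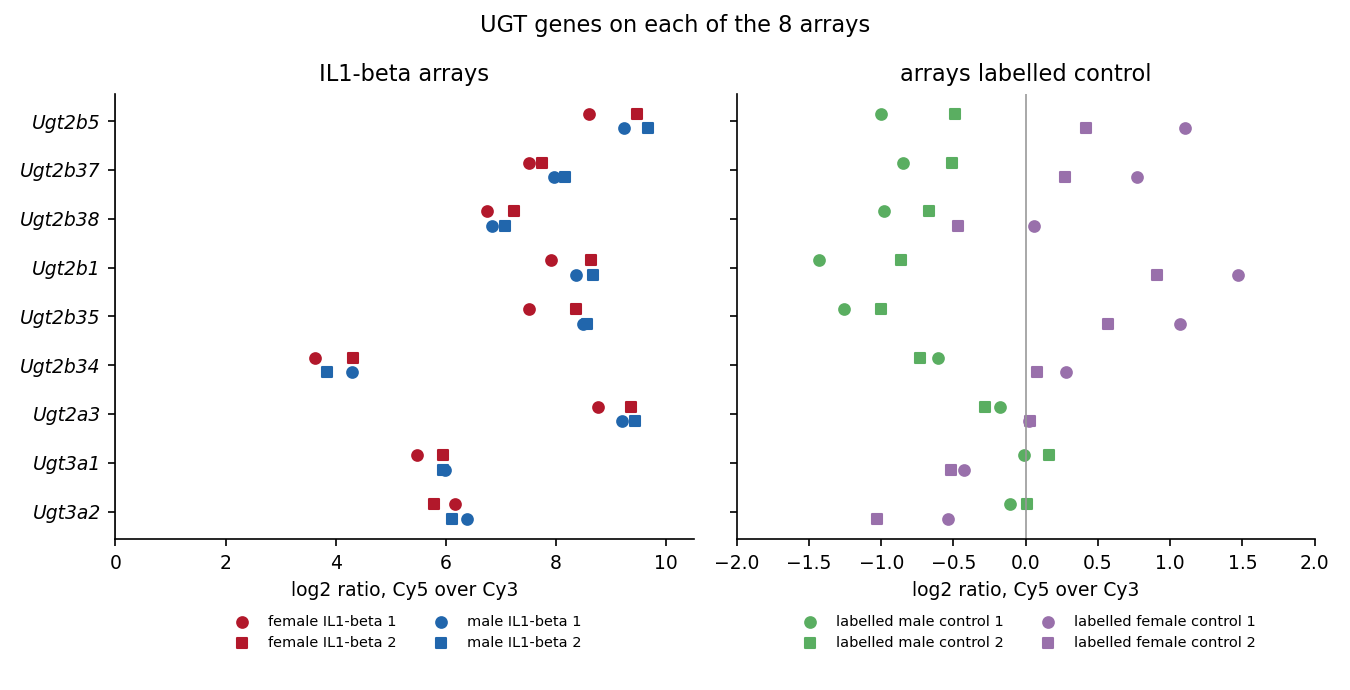
Log2 ratio of Cy5 over Cy3 for each of the 9 UGT genes on each array, with the 4 IL1-beta arrays on the left and the 4 arrays labelled control on the right, on axes of different range. Points are single arrays (circles for number 1, squares for number 2). On the IL1-beta arrays the genes lie between 3.62 and 9.67, and on the arrays labelled control between -1.43 and 1.47, where all 6 Ugt2b genes are below 0 on both labelled male arrays.

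Comparing females with males under IL1-beta asks whether UGT expression differed by sex in treated livers. No UGT gene passed. The difference was below 0, lower in females, for 8 of 9 genes, against 50.6% of all genes, with a median of -0.25 against -0.006 for all genes. The 10 tested hepatocyte markers had a median of -0.29 on the same arrays, so a shift of this size was not particular to UGT genes. With limma and Benjamini-Hochberg adjustment over all genes, 0 of 9 UGT genes passed (0.163% of all genes did), and 0 of 9 had an unadjusted p under 0.05 (8.28% of all genes). Without female array 1 the sign turned for 4 genes, to 0.050 for Ugt2a3, 0.12 for Ugt2b1, 0.017 for Ugt2b5 and 0.25 for Ugt2b34, and quantile normalization turned Ugt2b1 to 0.026.

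The gene with the most negative value was Ugt2b35, at -0.60 ± 0.32 (SE, n = 2 arrays per sex), with a 95% interval from -1.36 to 0.17 and an adjusted p of 0.753. Ugt2b37 stood at -0.42 ± 0.24 (adjusted p = 0.776) and Ugt2b5 at -0.42 ± 0.38 (adjusted p = 0.895). Males lay above females without overlap for Ugt2b35 and Ugt2b37 alone among the 9, against 18.8% of all genes. Ugt2a3, Ugt2b1 and Ugt3a1 each gave -0.25. The deposited ratios are rounded in steps of 0.033 (log2) where they are at least 1 in log10, which lets differences of separate genes coincide. Their intervals ran from -0.82 to 0.32 for Ugt2a3, from -1.06 to 0.57 for Ugt2b1 and from -0.75 to 0.26 for Ugt3a1. Ugt3a2 stood at -0.27 ± 0.25, Ugt2b34 at -0.10 ± 0.28 and Ugt2b38 at 0.03 ± 0.28. Each of these intervals includes both lower and higher expression in females.

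Female array 1 was the lowest of the 4 IL1-beta arrays for 8 of the 9 UGT genes, against 34.2% of all genes. It lay at least 0.3 below the other 3 for 5 of the 9, against 13.0%. The exception was Ugt3a2, for which female array 2 was the lowest at 5.78. The hepatocyte marker median was also lowest on female array 1, at 5.95. Its part in the UGT values was not tested.

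On the control arrays the genes of the chromosome 5 cluster lay on the side opposite to Xist. Of the 9 UGT genes 4 passed, all below 0 (Ugt2b1, Ugt2b35, Ugt2b5 and Ugt2b37), and 0 passed above 0. Over all genes 9.3% passed below 0 and 12.1% above 0, together 21.4%. This fit takes each array on its own, although same-number control arrays were negatively correlated over all genes. With each same-number pair as 1 unit, 1 of 9 UGT genes passed below 0, against 2.33% of all genes. The median was -0.43 over the 9 UGT genes and -0.68 over the 6 Ugt2b genes, against -0.018 over all genes. An unadjusted p under 0.05 was reached by 7 of 9, against 36.7% of all genes. In bulk RNA of this kind, fewer cells of a type and less RNA per cell cannot be told apart.

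Ugt2b1 read -1.43 and -0.86 on the arrays labelled male control and 1.47 and 0.91 on those labelled female control. The groups did not overlap and were close to mirror images. The turned and halved difference was -1.17 ± 0.17 (SE, n = 2 arrays per label, limma adjusted p = 0.00545), 2.25-fold lower on the Xist side. As labelled, female minus male and not halved, it was 2.34 ± 0.34, or 5.06-fold. Quantile normalization, which gives all arrays 1 distribution, more than doubled the sizes of the passing genes on the same side, to -2.81 for Ugt2b1, -2.34 for Ugt2b35, -1.91 for Ugt2b5 and -1.51 for Ugt2b37. Before this step the interquartile range of the tested genes was 0.58 to 0.69 (log2) on the control arrays and 1.93 to 1.97 on the IL1-beta arrays. Giving both kinds of array 1 distribution widens the control values by construction, so the larger sizes are no separate evidence. The fold values given here therefore depend on the scale.

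Ugt2b35 read -1.26 and -1.0 on the labelled male control arrays and 1.07 and 0.57 on the labelled female ones. Its turned and halved difference was -0.98 ± 0.16 (adjusted p = 0.00821, 1.97-fold), and 1.95 as labelled. Ugt2b35 and Ugt2b1 are neighbouring Ugt2 genes in the annotated order, apart from pseudogenes and a small nuclear RNA gene. Ugt2b5 read -1.0 and -0.49 on the labelled male control arrays and 1.10 and 0.42 on the labelled female ones, a difference of -0.75 ± 0.19 (adjusted p = 0.0342, 1.69-fold) and of 1.51 as labelled. Ugt2b37 read -0.85 and -0.51 on the labelled male control arrays and 0.77 and 0.27 on the labelled female ones, a difference of -0.60 ± 0.12 (adjusted p = 0.0164, 1.52-fold) and of 1.21 as labelled. Both its features passed when tested singly, at -0.47 ± 0.11 (adjusted p = 0.0327) and -0.73 ± 0.14 (adjusted p = 0.0175). In each of these genes, number 1 arrays lay farther apart than number 2 arrays.

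The other 3 members of the cluster had the same sign and did not pass. Ugt2b34 read -0.61 and -0.73 on the labelled male control arrays and 0.28 and 0.08 on the labelled female ones, with a turned and halved difference of -0.43 ± 0.14 (adjusted p = 0.0735) and of 0.85 as labelled. Ugt2b38, which shares most of its promoter with Ugt2b37, read -0.98 and -0.67 on the labelled male control arrays and 0.06 and -0.47 on the labelled female ones, a difference of -0.31 ± 0.14 (adjusted p = 0.153) and of 0.62 as labelled. Ugt2a3 read -0.18 and -0.28 on the labelled male control arrays and 0.02 and 0.03 on the labelled female ones. Its difference was -0.13 ± 0.12 (adjusted p = 0.475, interval -0.41 to 0.16), and 0.25 as labelled. Ugt2a3 lies between Ugt2b37 and Ugt2b38 in the cluster. Arrays of the 2 labels did not overlap for any of these genes.

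The Ugt3 genes lay on the Xist side and did not pass. Ugt3a1 read -0.01 and 0.16 on the labelled male control arrays and -0.43 and -0.52 on the labelled female ones, a turned and halved difference of 0.27 ± 0.11 (adjusted p = 0.112) and of -0.55 as labelled. Ugt3a2 read -0.11 and 0.01 on the labelled male control arrays and -0.54 and -1.03 on the labelled female ones, a difference of 0.37 ± 0.12 (adjusted p = 0.0764) and of -0.73 as labelled. Labelled male arrays lay below labelled female arrays without overlap for 7 of 9 UGT genes (35.3% of all genes) and above them for the 2 Ugt3 genes (32.2%). The signs of the 9 values thus divided by family, Ugt2 below 0 and Ugt3 above 0.

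**Figure D2:**
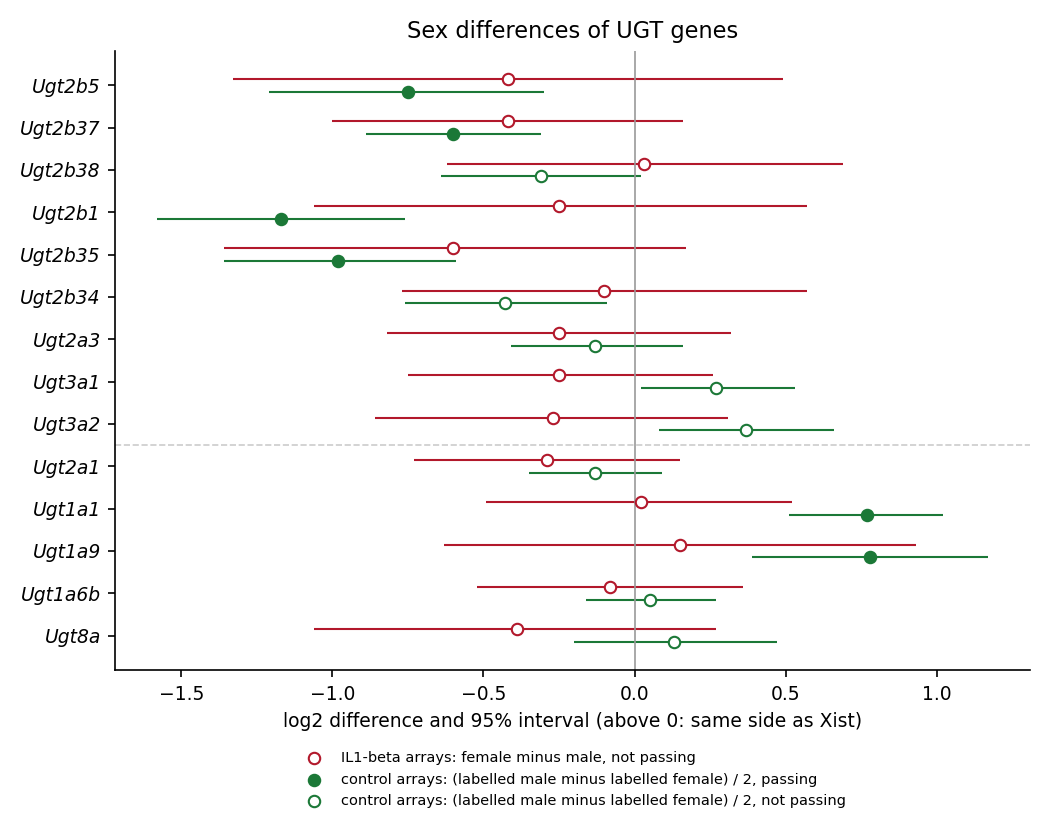
Sex difference of each UGT gene (log2, points) with its 95% interval (lines), as female minus male under IL1-beta and as labelled male minus labelled female control halved on the control arrays. Filled points passed at an adjusted p of 0.05 in the fit that takes each array on its own, and open points did not. Genes under the dashed line are other UGT genes. On the control arrays Ugt2b1 is lowest at -1.17, and Ugt1a1 (0.77) and Ugt1a9 (0.78) are on the other side of 0.

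The mirror image of the control arrays was not equally close for every UGT gene. The mean over the 4 control arrays, which is 0 for an exact mirror, was 0.02 for Ugt2b1 and 0.01 for Ugt2b5, and -0.08 for Ugt2b37. It was -0.52 for Ugt2b38 and -0.42 for Ugt3a2, whose arrays lay mostly below 0 under both labels. The median was -0.16 over the UGT genes and 0.013 over all genes, and the mean of the 2 same-number arrays was below 0 in both pairs for 7 of 9 UGT genes, against 32.1% of all genes. Same-number arrays had opposite signs in both pairs for 6 of 9 UGT genes, against 50.0% of all genes. The mean over the 4 control arrays was -0.11 for Ugt2a3, -0.16 for Ugt2b35, -0.2 for Ugt3a1 and -0.25 for Ugt2b34. The turned and halved form therefore describes Ugt2b1, Ugt2b5 and Ugt2b37 most closely, and Ugt2b38 and Ugt3a2 least. Ugt2a3, which did not pass, lay closer to a mirror than Ugt2b35, which passed.

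Arrays of the same number were also taken as pairs, since their correlations were the most negative. The pair values were -1.45 (number 1) and -0.89 (number 2) for Ugt2b1, -1.17 and -0.79 for Ugt2b35, -1.05 and -0.46 for Ugt2b5, and -0.81 and -0.39 for Ugt2b37. In 6 of 9 UGT genes the number 1 pair gave the larger absolute value, against 51.5% of all genes. When each pair counted as 1 unit, Ugt2b1 alone of the 9 passed (adjusted p = 0.0402), against 2.33% of all genes passing below 0 and 7.08% in either direction. Ugt2b35 then had an adjusted p of 0.0593, Ugt2b37 of 0.0813 and Ugt2b5 of 0.145. Without labelled male control 1 or labelled female control 1, Ugt2b37 and Ugt2b5 no longer passed, and 2 of the 9 genes did. Ugt2b5 also failed to pass without labelled male control 2 (adjusted p = 0.0579), labelled female control 2 (0.0529) or either male IL1-beta array (0.0551).

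**Figure D3:**
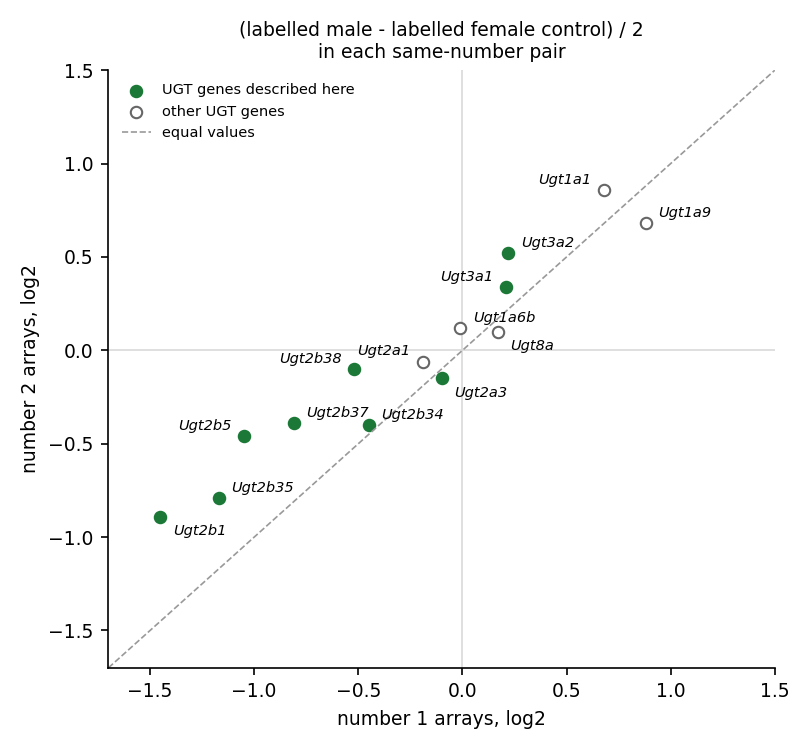
Turned and halved difference of the control arrays (log2) in the number 1 pair (horizontal) and the number 2 pair (vertical) for the 9 UGT genes (filled) and 5 other UGT genes (open), with a dashed line of equal values. All 7 Ugt2 members described here are below 0 in both pairs, with Ugt2b1 farthest from 0 at -1.45 and -0.89. The closest to 0 are Ugt2a3 (-0.10) in the number 1 pair and Ugt2b38 (-0.10) in the number 2 pair.

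Markers of other cell types moved on the same arrays. The counts below stand against 12.1% of all genes passing on the Xist side and 9.3% passing below 0, and the lists are short. All 4 tested adipocyte markers passed on the Xist side, with medians of 0.32 and 4.50 on the labelled male control arrays and -3.0 and -3.83 on the labelled female ones. Of the Kupffer cell markers 4 of 6 passed on that side (medians 1.02 and 0.69 on labelled male arrays, -1.01 and -0.70 on labelled female arrays). Stellate cell markers did so in 4 of 6 cases (medians 0.89 and 0.77 on labelled male arrays, -0.65 and -0.30 on labelled female arrays), endothelial markers in 3 of 5 and cholangiocyte markers in 2 of 4. Hepatocyte markers had a median difference of 0.10, with 1 of 10 passing on the Xist side and 0 below 0. Of the marker lists for other organs, exocrine pancreas had 2 of 3 and intestinal epithelium 1 of 3 passing on the Xist side (medians 0.56 and -0.05). Kidney tubule had 0 of 2 passing, with a median of -0.93. The 4 passing UGT genes lay on the other side from the passing markers of these lists. The part of other cell types in the UGT differences was not tested.

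The sex differences under IL1-beta and on the control arrays were set against each other, with the control difference turned and halved. This comparison rests on the untested assumption behind the halving. Treatment and array type cannot be told apart here, so a difference between them cannot be read as one of treatment. The sizes also differed for sex chromosome genes. Eif2s3y stood at -6.71 under IL1-beta and -10.14 on the control arrays, Kdm5d at -3.28 and -4.87, and Xist, the other way, at 6.15 and 5.17. Both sex differences lay below 0 for 6 of 9 UGT genes, against 31.8% of all genes, and for none of these UGT genes did the difference between them pass. With limma, 0 of 9 passed (0.209% of all genes), and 1 of 9 had an unadjusted p under 0.05 (10.3%). That gene was Ugt2b1, with -0.25 ± 0.34 under IL1-beta, -1.17 ± 0.17 on the control arrays and 0.92 ± 0.38 between them (limma adjusted p = 0.48). With quantile normalization its difference was 2.83 (adjusted p = 0.0676), and those of Ugt2b35, Ugt2b5 and Ugt2b37 were 1.97, 1.44 and 1.35. That setting widens the control values against those of the IL1-beta arrays by construction, which enlarges these differences. Ugt2b35 differed by 0.38 (interval -0.48 to 1.23), Ugt2b5 by 0.34 (-0.68 to 1.36) and Ugt2b37 by 0.18 (-0.47 to 0.83). Ugt3a2, at -0.64 (-1.29 to 0.01), and Ugt3a1, at -0.52 (-1.09 to 0.04), had values in the other direction. These intervals are too wide to show that the 2 differences are alike. With the control difference as labelled instead, the interaction passed below 0 for 3 of 9 UGT genes, against 5.65% of all genes, at -2.59 for Ugt2b1 (adjusted p = 0.0178), -2.55 for Ugt2b35 (adjusted p = 0.0156) and -1.63 for Ugt2b37 (adjusted p = 0.0262). That form differs from the turned one both in sign and in not being halved, so the calls cannot be put down to the direction alone.

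The effect of IL1-beta itself was not tested. Ugt2a3, for example, averaged 9.07 ± 0.42 and 9.32 ± 0.16 on the female and male IL1-beta arrays, against 0.02 ± 0.01 and -0.23 ± 0.07 on those labelled female and male control (SD, n = 2). The same gap of several log2 units was present in the hepatocyte markers. It separates arrays with a liver profile over the pool from arrays without one, and treatment and array type cannot be told apart.

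Of 12 further UGT genes 5 were tested, and 2 passed on the control arrays, both above 0 (12.1% of all genes). Ugt1a1, the bilirubin-conjugating enzyme, read 0.46 and 0.42 on the labelled male control arrays and -0.89 and -1.30 on the labelled female ones, a turned and halved difference of 0.77 ± 0.11 (adjusted p = 0.00457, and 0.0336 from pair means). Ugt1a9, known for phenol conjugation, read 0.52 and 0.10 on the labelled male control arrays and -1.23 and -1.26 on the labelled female ones, a difference of 0.78 ± 0.16 (adjusted p = 0.0189, and 0.108 from pair means). These genes share exons and lie outside the chromosome 5 cluster. Ugt2a1 (-0.13), Ugt1a6b (0.05) and Ugt8a (0.13) did not pass, and under IL1-beta none of the 5 did, with Ugt1a1 at 0.02 and Ugt1a9 at 0.15.

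Genes of UDP-sugar supply were lower on the Xist side in 4 of 13 tested cases and higher in 1, against 9.3% and 12.1% of all genes. Ugdh makes UDP-glucuronic acid, the donor that UGT2B enzymes use. It read -1.08 and -1.60 on the labelled male control arrays and 1.15 and 1.30 on the labelled female ones, a turned and halved difference of -1.28 ± 0.12 (adjusted p = 0.0012). Under IL1-beta it read -1.45 and -1.13 in females and -0.36 and -0.14 in males, without overlap, at -1.04 ± 0.24 (adjusted p = 0.281). Also below 0 on the control arrays were Pgm3, an enzyme of the UDP-N-acetylglucosamine route (-0.89 ± 0.15, adjusted p = 0.00858), the nucleotide sugar transporter Slc35d2 (-0.78 ± 0.16, adjusted p = 0.0156) and Ugp2, which makes UDP-glucose (-0.40, adjusted p = 0.0397). Ugp2 was named after its value had been seen. The hexokinase Hk1 lay above 0 (0.75 ± 0.15, adjusted p = 0.0164). The list median was -0.27.

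Of 8 genes of glucuronide hydrolysis and the ascorbate branch, 1 passed on each side, near the shares of all genes (9.3% below 0 and 12.1% above). Ces1e, the esterase known as egasyn, which holds beta-glucuronidase in the endoplasmic reticulum, stood at -0.83 ± 0.09 (adjusted p = 0.00172), and Rgn, a lactonase of ascorbate synthesis, at 0.53 ± 0.15 (adjusted p = 0.0488). Of 10 conjugate transporters 3 passed below 0 and 2 above 0, against the same 9.3% and 12.1% of all genes. Below 0 were the efflux pump Abcg2 (-1.39 ± 0.18, adjusted p = 0.00332), the organic anion transporter Slc22a8 (-1.32 ± 0.12, adjusted p = 0.000894) and the uptake transporter Slco1a1 (-0.67, adjusted p = 0.0367). The uptake transporter Slco1a4 (1.57 ± 0.14, adjusted p = 0.001) and the efflux pump Abcc4 (0.84 ± 0.11, adjusted p = 0.00424) were above 0. None of these lists had a gene passing under IL1-beta.

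**Figure D4:**
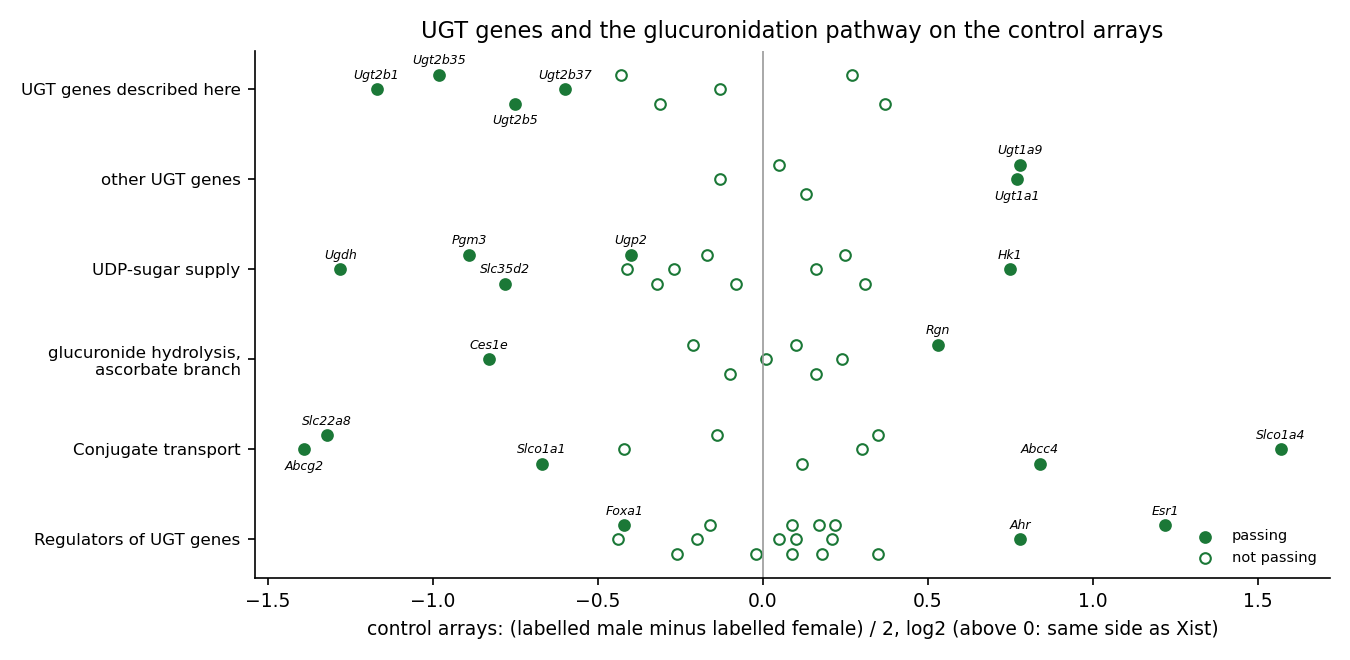
Turned and halved difference on the control arrays (log2) for the 9 UGT genes and for 5 lists of related genes, 1 point per gene. Genes that passed in the fit that takes each array on its own are filled and named. Passing UGT members lie between -1.17 (Ugt2b1) and -0.60 (Ugt2b37), Ugdh lies at -1.28, and Ugt1a1 and Ugt1a9 lie at 0.77 and 0.78.

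Among 17 tested regulators of UGT genes, 2 passed above 0 and 1 below 0 on the control arrays, close to the 12.1% and 9.3% of all genes. The estrogen receptor gene Esr1 stood at 1.22 ± 0.12 (adjusted p = 0.00145) and Ahr, the receptor for dioxin-like compounds, at 0.78 ± 0.14 (adjusted p = 0.011). Foxa1, a pioneer factor of liver, stood at -0.42 ± 0.11 (adjusted p = 0.0375). Under IL1-beta none of the 17 passed. Foxa1 read 1.13 and 1.22 in females and 2.28 and 2.65 in males, a difference of -1.29 ± 0.22 (adjusted p = 0.127), and Esr1 stood at 1.20 ± 0.24 (adjusted p = 0.212). Of 10 genes of growth hormone signalling and sex-biased regulation, 2 passed above 0 and 1 below 0 on the control arrays, against the same 12.1% and 9.3% of all genes. They were Cux2, a transcription factor of female liver, at 2.99 ± 0.11 (adjusted p = 2.1e-05) and Socs2 at 1.40 ± 0.16 (adjusted p = 0.00235), and, below 0, Onecut1 at -0.55 ± 0.09 (adjusted p = 0.00755). Cux2 also passed under IL1-beta (5.59 ± 0.22, adjusted p = 0.000626) and in the difference between the sex differences (2.61 ± 0.24, adjusted p = 0.0203).

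The gene most like each UGT gene over the 8 arrays was named by Pearson's r, as a description. The arrays share 1 reference label and fall into a group with and a group without a liver profile, so r mostly measures that split. For Ugt2b5 it was the organic anion transporter gene Slco1a1 (r = 0.9997), which read 7.52 and 8.02 in females and 7.91 and 8.34 in males under IL1-beta, and -1.22 and -0.46 on labelled male against 0.76 and 0.24 on labelled female control arrays. The others were Orm1 for Ugt2a3, C8a for Ugt2b1, Slc25a21 for Ugt2b34, Idnk for Ugt2b35, Acox2 for Ugt2b37, Nr1h4 for Ugt2b38, Aspdh for Ugt3a1 and Man1a for Ugt3a2. Their r lay between 0.9991 and 0.9999.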

How the data were processed

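For 45018 features on 8 arrays the deposited file holds log10 ratios of Cy5 over Cy3, made by the authors with Agilent Feature Extraction, per the submitters' processing notes. No version is named, and how background and dyes were corrected is not given in the sources used here. Base 10 was taken from the usual output of this software and the range of the values. No label states it, and another base would rescale every log2 value given here. Column medians were 0 on 7 arrays and -0.00129 on female IL1-beta 2, exact zeros included, so the centring of the measured values is unknown. Symbols came from the platform annotation: 33653 features carried 1 symbol, 56 several and 11309 none. Without channel intensities, which were not analysed here, no signal over background can be given.

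Ratios were multiplied by 3.32 to give log2. An exact 0 (4646 to 5115 features on the IL1-beta arrays, 7933 to 10324 on the control arrays) was taken as no measurement. A gene was the mean of its features measured on all arrays. limma 3.58.1 in R 4.3.3 fitted the 4 group means to 15346 genes with eBayes (4 residual degrees of freedom, 2.88 from the prior). Tests were two-sided, with Benjamini-Hochberg adjustment over all genes and 0.05 as the threshold. Errors of differences are standard errors. The method was tested on simulated data.

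Members, pathway lists and the rule for naming genes were chosen with earlier results of these data known. All members are named. From each list, up to 4 passing genes with the smallest p are named per comparison, or 2 genes where none passed, of which the text gives a selection. Genes named outside this rule are Ugp2, Ugt1a6b and, as a transporter, Slco1a1. The crossed pairing of replicate numbers was added after the data had been seen. Alternatives were other normalizations, filters, feature choices, moderation settings, blocks, thresholds and subsets of arrays, and leaving out each array.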

Additional observations from a re-analysis of the deposited data

How the results depend on the processing

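On the control arrays Ugt2b1 passed in 21 of 21 alternatives (limma adjusted p 0.000735 to 0.0402) and Ugt2b35 in 20 of 21 (0.00259 to 0.0593), failing only with pair means. Ugt2b37 passed in 18 of 22 (0.00877 to 0.0928) and Ugt2b5 in 10 of 21 (0.0124 to 0.155). The count of UGT genes passing there was 4, and became 8 with quantile normalization, 2 with control arrays alone, 1 with pair means and 2 to 5 when 1 array was left out. Over all genes the count was 3284, and 6765, 2058, 1087 and 1516 to 3130 under the same settings. Under IL1-beta the count over all genes was 25, and became 5 with quantile normalization, 10 with IL1-beta arrays alone, 58 at an adjusted p of 0.10 and 7 to 23 without 1 array. For the difference between the sex differences it was 32, and became 628 with quantile normalization, 19 both without the 25% of genes with the lowest ratio and with every probe tested, 11 with exact zeros kept, 75 at an adjusted p of 0.10, 0 with the replicate block and 0 to 27 without 1 array. The number of UGT genes passing in these 2 comparisons was 0 under every alternative run. The median UGT ratio over the pool was 7.84 (log2), 5.46 with quantile normalization, and 8.24 with the probe of the highest ratio. Quantile normalization puts the narrow control arrays and the wide IL1-beta arrays on 1 distribution. Its larger counts on the control arrays and in the difference follow at least partly from that step.

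With quantile normalization the female-minus-male value under IL1-beta turned for Ugt2b1 (0.026), and the difference between the sex differences turned for Ugt2a3 (0.23). Leaving out 1 array gave, under IL1-beta, -0.55 to 0.050 for Ugt2a3, -0.61 to 0.12 for Ugt2b1, -0.85 to 0.017 for Ugt2b5, -0.45 to 0.25 for Ugt2b34 and -0.22 to 0.28 for Ugt2b38. It gave, for the difference between the sex differences, -0.42 to 0.18 for Ugt2a3, -0.093 to 0.77 for Ugt2b5, -0.022 to 0.68 for Ugt2b34 and -0.054 to 0.81 for Ugt2b35. The signs turned without female IL1-beta 1 or 2 or male IL1-beta 1. Without male IL1-beta 1, Ugt2b34 stood at 0.12 and Ugt2b38 at -0.083 under IL1-beta. The cause was not tested. No UGT value on the control arrays changed sign. In all, 509 of 546 UGT values kept their sign and their side of the threshold, 16 no longer passed, 8 newly passed and 13 changed sign. This count is no measure of robustness. Blocks, moderation settings, thresholds and filters left the UGT estimates as they were, so their signs could not turn. Under IL1-beta and in the difference between the sex differences no UGT gene passed to begin with.

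The labels do not say that a replicate number marks a shared animal or batch. Deviations of same-numbered arrays from their group means correlated at -0.407 between the sexes under IL1-beta and -0.43 on the control arrays. With the replicate number as a block, 18 genes passed under IL1-beta, 2433 on the control arrays (3 UGT genes, without Ugt2b5) and 0 in the difference. With the numbers crossed on 1 side, chosen after seeing the data, the counts were 23, 2933 (3 UGT genes) and 24. The number of arrays and the unknown signal over background limit all of these values.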

Other observations

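The palindrome of GTTA, 5 bases of any kind and TAAC was searched in all promoters after the UGT promoters had been read. Of the tested genes with a promoter in the RefSeq table, 40 held it, 7 UGT members among them, and 12301 did not. Without the UGT members, whose promoters prompted the search, the other 33 genes had a median ratio of liver to pool of 1.68 (log2) on the IL1-beta arrays, against -0.12 in the genes without the palindrome. Their median turned and halved difference on the control arrays was -0.02, the same as in the genes without it. These are descriptions of genes that are not independent of each other, and no test was run.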
